A study of Mus musculus with 36 samples.

Results

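The genes described here are 10 genes of negative feedback on mitogen-activated protein (MAP) kinase signaling in mouse microglial cells. They were 7 dual-specificity phosphatases (Dusp1, Dusp2, Dusp4, Dusp5, Dusp6, Dusp10 and Dusp16), 2 Sprouty genes (Spry1 and Spry2) and the Sprouty-related gene Spred1. Their rows were found by gene symbol, and all 10 were among the 19879 genes listed in the deposited tables. The members were chosen with earlier results of these data known. The measurements come from poly(A) RNA sequencing of BV-2, an immortalized microglial line from wild-type mouse, and the 36 libraries make up 12 groups of 3. Every treatment was sampled after 4 h and after 24 h. The cells received DMSO alone, ethanol (EtOH) alone, 600 ng/mL bacterial lipopolysaccharide (LPS), or LPS together with 30 µM dimethyl fumarate (DMF), 30 µM monomethyl fumarate (MMF) or 6 µM cannabidiol (CBD). Vehicle was kept at 0.2% throughout, with DMSO serving DMF and MMF and EtOH serving CBD, and which vehicle the cells given LPS alone carried was not stated. In the LPS experiments serum was lowered to 0.1% just before the drugs were added. The 3 libraries of a group came from 3 repeats of the experiment in this single line, so the p-values measure the spread between repeats of one cell line. The question asked was how LPS and each drug changed the RNA of these feedback genes, and when.

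MAP kinases (ERK, JNK and p38) carry signals from growth factor receptors and from Toll-like receptors, including the LPS receptor, to the nucleus. Dual-specificity phosphatases switch them off by removing the phosphates from both the threonine and the tyrosine of the activation loop, and many of these phosphatases are themselves transcribed in response to the kinases they silence. Sprouty and Spred proteins act higher up, at the level of Ras, and in macrophages the loss of phosphatases such as Dusp1 is known to prolong inflammatory gene expression.

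Among the 9 members with a promoter entry in RefSeq (GRCm38.p6), 2 held a motif of those searched, and these are shown because Dusp1 and Dusp5 were also among the members whose levels spread most across the 12 groups. Each stretch covers the bases from 250 to 51 before the annotated start site, 5′ to 3′ on the strand of the gene, and was located in GRCm39 by exact match. Capitals mark motif matches.

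Dusp1 (minus strand, GRCm39 chr17:26727497-26727696): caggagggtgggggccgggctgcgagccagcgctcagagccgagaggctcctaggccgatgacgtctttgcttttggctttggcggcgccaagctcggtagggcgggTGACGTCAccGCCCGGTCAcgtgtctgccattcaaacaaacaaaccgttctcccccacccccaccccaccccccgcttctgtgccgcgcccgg
Dusp5 (plus strand, GRCm39 chr19:53517326-53517525): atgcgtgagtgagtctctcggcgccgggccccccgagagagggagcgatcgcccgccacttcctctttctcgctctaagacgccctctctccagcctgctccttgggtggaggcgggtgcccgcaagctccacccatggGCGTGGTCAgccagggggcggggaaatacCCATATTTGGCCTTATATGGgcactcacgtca

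In Dusp1 the first match, which begins 143 bases before the start, was a cyclic AMP response element (TGACGTCA), present in 1.79% of 32851 RefSeq promoter windows of 300 bases. The second, 133 bases before the start, was the antioxidant response element core (TGACNNNGC, here on the opposite strand), which 12.4% of windows held. In Dusp5 the same core lay 111 bases before the start, also on the opposite strand. Beyond it, Dusp5 carried a pair of adjoining serum response element (CArG) boxes at 82 and 72 bases before the start, a motif present in 1.63% of windows. Searches on both strands for AP-1 (TGANTCA, 7.81% of windows), ETS (CCGGAAG, 8.86%) and NF-kB motifs (5.80%) matched 0 of the 9 member windows. A match is a run of letters and not a measured binding site.

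Between 14.1 M and 26.7 M reads were assigned to genes per library (median 16.2 M). The 10 microglial markers examined were detected in all 36 libraries, with a summed normalized count of 23880.0 to 46140.0, although Cx3cr1 (9.36 to 370.1), P2ry12 (15.8 to 102) and Tmem119 (19.1 to 223) were low. Neuronal and fibroblast markers summed to at most 6.27 and 8.08, and astrocyte markers to at most 28.2. Of the oligodendrocyte markers Mbp was present at 658 to 1508, whereas Mog and Olig2 did not exceed 1.13. Because RNA was measured in bulk, fewer cells of a kind and less RNA per cell cannot be told apart.

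Compared per exon length as RPKM (reads per kilobase of exon, scaled to library size), the members spanned a wide range of levels. Dusp4, a nuclear phosphatase of ERK and JNK (chromosome 8, 35274451 to 35287048, plus strand), stood highest with a median of 127.5 RPKM over the 36 libraries and a range of 74.5 to 251. Dusp6, the cytoplasmic ERK phosphatase (chromosome 10, 99099093 to 99103351, plus strand), followed with a median of 87.1 RPKM. Spred1, which brings the Ras inhibitor neurofibromin to the membrane (chromosome 2, 116951855 to 117012760, plus strand), had a median of 44.5 RPKM. These 3 genes thus carried most of the members' RNA per length. Dusp5, a nuclear phosphatase selective for ERK (chromosome 19, 53517540 to 53530862, plus strand), had a median of 17.9 RPKM. Dusp2, a nuclear phosphatase of leukocytes (chromosome 2, 127178079 to 127180296, plus strand), had a median of 15.9 RPKM. Dusp16, a phosphatase of JNK and p38 (chromosome 6, 134692431 to 134769588, minus strand), had a median of 5.90 RPKM. Dusp1, the immediate early phosphatase of p38 and JNK (chromosome 17, 26724564 to 26781102, minus strand), had a median of 4.55 RPKM. Dusp10, another phosphatase of JNK and p38 (chromosome 1, 183745499 to 183807833, plus strand), was lowest of the 8 at 1.04 RPKM. Whether reads were counted by strand was not stated. Dusp10 shares 970 of its exonic bases with genes on the opposite strand, chiefly 1700056E22Rik, Dusp6 shares 779 of 3391, Dusp2 679 of 2125, Dusp5 555 of 2481, Dusp16 220 of 8841 and Dusp1 38 of 3324, so reads there could not be assigned with certainty, while Dusp4 and Spred1 share no exonic base with an annotated opposite-strand gene.

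**Figure D1:**
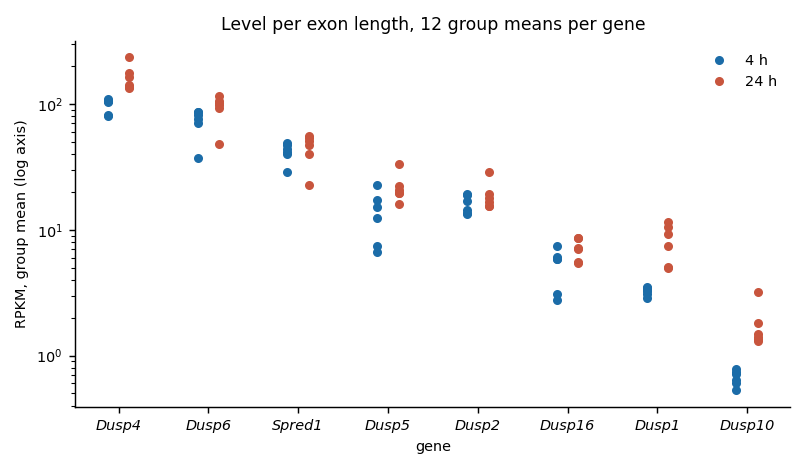
RPKM (log axis) of the 8 members that passed the filter on low values, with 12 points per gene, each the mean of the 3 libraries of 1 group (blue, 4 h; red, 24 h). Medians over the libraries run from 1.04 RPKM for Dusp10 to 127.5 RPKM for Dusp4.

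Sprouty RNA was close to the limit of detection. Spry1, an inhibitor of receptor tyrosine kinase signaling to Ras (chromosome 3, 37694096 to 37698747, plus strand), had 65 reads over all 36 libraries and at most 6 in any library, with 0 in 8 libraries. Its paralog Spry2 (chromosome 14, 106129381 to 106134253, minus strand) had 20 reads in all, at most 4 per library and 0 in 21 libraries. A count of 0 still allows up to 3 reads, or 0.112 to 0.213 RPM (reads scaled to library size) depending on the library, a limit that covers counting error only. Neither gene passed the filter for testing (a normalized count of 10 or more in at least 3 libraries), so their response to LPS or to the drugs was not detectable at this depth. The remaining 8 members passed in every comparison.

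Levels below are normalized counts with 1 scaling over all 36 libraries, given as the mean ± SD of 3 libraries, and compare groups for the same gene only. Dusp10 spread most across the 12 groups, by 2.61 on the log2 scale between its highest mean (326 ± 36.9 in LPS with CBD at 24 h) and its lowest (53.4 ± 7.95 in EtOH at 4 h). Dusp5 spread by 2.37, from 1395.5 ± 178 in LPS with DMF at 24 h to 270.5 ± 49.1 in EtOH at 4 h. Dusp1 spread by 2.02, from 637 ± 108 in LPS with CBD at 24 h to 157 ± 62.4 in EtOH at 4 h. For these 3 genes the highest mean was in a drug group at 24 h and the lowest in EtOH at 4 h. Dusp16 spread by 1.70 (1294.5 in LPS with DMF at 24 h to 399 in EtOH at 4 h), Dusp4 by 1.58 (11280.0 in LPS with CBD at 24 h to 3779 in DMSO at 4 h) and Dusp2 by 1.14 (1029 in LPS with DMF at 24 h to 468 in DMSO at 4 h). Dusp6 and Spred1 had their lowest means in drug groups. Dusp6 ran from 6697 in LPS with DMF at 24 h down to 2255.5 in LPS with DMF at 4 h, and Spred1 from 7242 in EtOH at 24 h down to 2978 in LPS with CBD at 24 h.

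Most neighbors in these orders could not be separated, since their libraries overlapped. For Dusp4 the neighbors without overlap were LPS with CBD above EtOH at 24 h, DMSO above LPS with DMF at 24 h, and LPS with MMF above EtOH at 4 h. For Dusp10 LPS with CBD at 24 h lay above EtOH at 24 h, and DMSO at 24 h above LPS with MMF at 4 h. For Dusp1 the only such step divided LPS at 24 h from LPS with MMF at 4 h, so that all 24 h groups had higher means than all 4 h groups. Dusp2 and Dusp5 each had LPS with DMF at 24 h set apart at the top, with a second step for Dusp2 between DMSO and EtOH at 24 h and for Dusp5 between LPS and DMSO at 4 h. For Dusp6 LPS with DMF at 24 h lay above LPS at 24 h, and LPS with MMF at 4 h above LPS with CBD at 24 h, and for Dusp16 DMSO at 24 h lay above DMSO at 4 h. For Spred1 EtOH lay above LPS with MMF at 4 h, and the bottom places belonged to LPS with DMF at 4 h and, below it, LPS with CBD at 24 h, each apart from its neighbor.

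**Figure D2:**
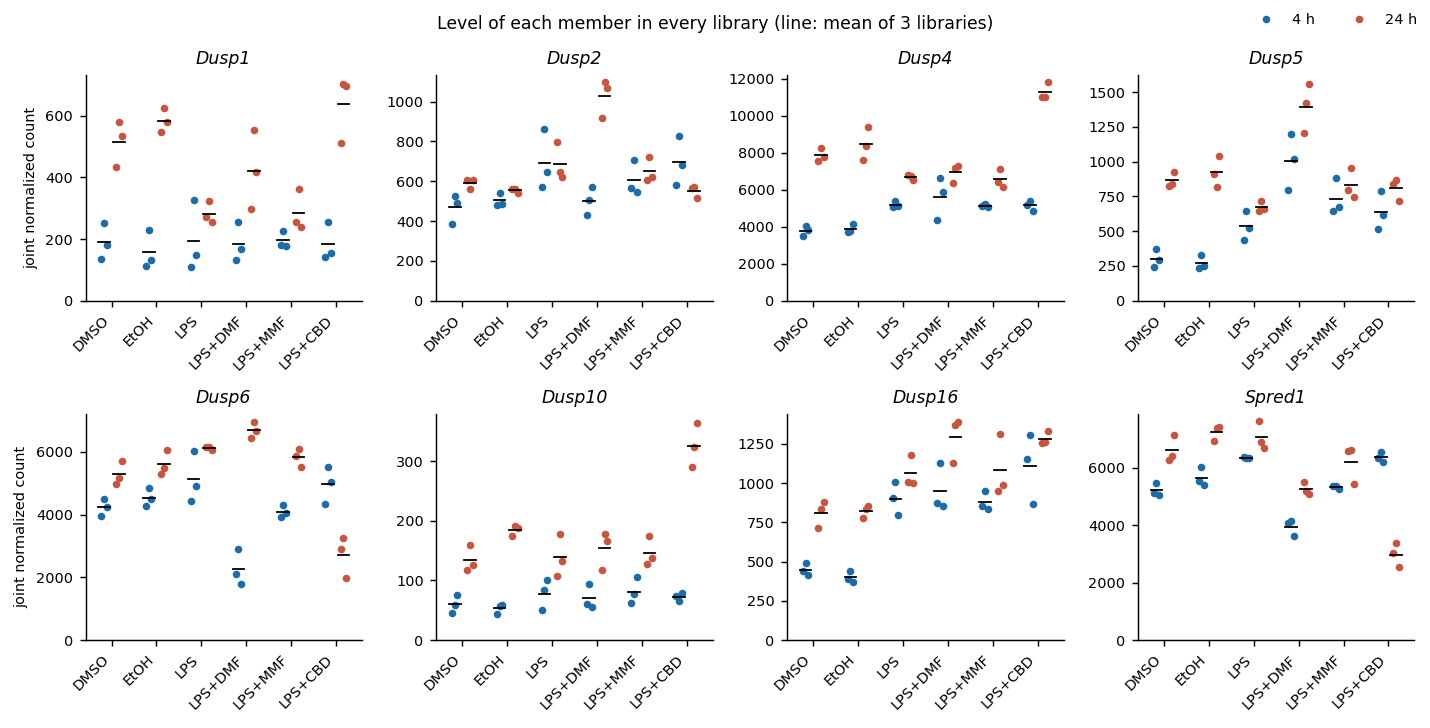
Normalized counts (linear axes from 0) of the 8 tested members in each of the 36 libraries, by treatment, at 4 h (blue) and 24 h (red); black lines are means of 3 libraries. The 3 libraries of LPS with CBD at 24 h lie above all others for Dusp10 (290 to 363) and Dusp4 (11008 to 11822), and the libraries of LPS with DMF at 4 h lie at the bottom for Dusp6 (1779 to 2897) beside those of LPS with CBD at 24 h (1994 to 3265).

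Dusp1 varied between repeats in a regular way. The library numbered 2, or 5 in the vehicle groups, was the highest for Dusp1 in 12 of 12 groups. Its Dusp1 count was 1.27 to 2.52 times the mean of the other libraries of its group at 4 h, and 1.11 to 1.55 times at 24 h. In LPS at 4 h, for example, the libraries held 111, 326 and 148. The library numbered 2 or 5 was also highest in 9 of 12 groups for Dusp5 and for Dusp6. It was highest in 8 of 12 for Dusp2 and Dusp16, 7 for Dusp4, and 6 for Dusp10 and Spred1. How often it was highest over all genes was not counted. The part of this pattern in the results was not tested beyond the fits with the repeat number as a block. Those fits are given where they change a call.

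LPS for 4 h raised Dusp16 and Dusp5 most, and Dusp4 to a lesser degree. Dusp16 held 905, 1004.0 and 796 normalized counts in the LPS libraries, against 440.4, 488 and 416 with DMSO and 386, 439.96 and 373 with EtOH. Every LPS library lay above every vehicle library, a 2.00-fold rise over DMSO (log2FC 1.0, SE 0.11, adjusted p = 0.000861, limma) and a 2.25-fold rise over EtOH (log2FC 1.17, SE 0.11, adjusted p = 0.000521, limma). Dusp5 held 439, 646 and 519 with LPS, against 243, 372 and 295 with DMSO and 235, 327 and 249.7 with EtOH. The groups again did not overlap, with a 1.76-fold rise over DMSO (log2FC 0.82, SE 0.19, adjusted p = 0.0218) and a 1.97-fold rise over EtOH (log2FC 0.98, SE 0.17, adjusted p = 0.00967). Dusp4 held 5075, 5386 and 5102 with LPS, above all vehicle libraries (3519 to 4130.1), with log2FC 0.45 over DMSO (adjusted p = 0.00513) and 0.42 over EtOH (adjusted p = 0.0057). Spred1, at 6328 to 6369.6 with LPS, was called against DMSO (5061 to 5462; log2FC 0.28, adjusted p = 0.0218) and not against EtOH (log2FC 0.17, adjusted p = 0.134).

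In all, 4 of 8 members were called against DMSO, where 14.1% of 11424 genes were called, and 3 of 8 against EtOH, where 10.2% of genes were called. All calls were rises, with a median log2FC over the 8 members of 0.39 against DMSO and 0.43 against EtOH, beside -0.000463 and 0.00221 over all genes tested. The 2 comparisons share their LPS libraries and are not independent. Dusp1 did not pass at log2FC -0.08 (95% interval -0.93 to 0.77) against DMSO, an interval wide enough to hold changes of nearly 1 log2 unit in either direction. Dusp2, at log2FC 0.55 and 0.44, missed the threshold against both vehicles (adjusted p = 0.0659 and 0.0987, limma). It passed with DESeq2 (adjusted p = 0.0118 and 0.0343) and without LPS replicate 1 (0.0413 and 0.0435). The Dusp5 call against DMSO was lost without DMSO replicate 4, DMSO replicate 6 or LPS replicate 3 (adjusted p = 0.0622, 0.0846 and 0.0732), and against EtOH without EtOH replicate 6 (0.0523). The Spred1 call against DMSO was lost without DMSO replicates 4 or 6 or LPS replicates 1 or 3 (adjusted p = 0.0559 to 0.113).

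Other genes of the pathway moved in both directions with LPS at 4 h, in a comparison where 14.1% of all genes were called. Map3k8, the kinase that couples Toll-like receptors to ERK, rose by log2FC 1.13 over DMSO (adjusted p = 0.00955), and Mapkapk2, the main kinase below p38, by 0.87 (adjusted p = 0.00219). Among 24 MAP kinases and upstream kinases 2 rose and 2 fell, and among 10 downstream kinases 1 rose and 2 fell. Of 11 genes listed as transcription factors of the ERK response 2 rose, Ier3 (1.27) and Ets2 (1.17), and 2 fell, including Etv5 (-0.60). Ier3 is not itself a transcription factor, and the list keeps its name below. Among 11 other dual-specificity phosphatases Dusp3 rose (0.31) and Dusp7, a cytoplasmic ERK phosphatase, fell (-0.28). Of 9 further Sprouty, Spred and Ras feedback genes tested, Rasa2 (-0.37) and Spred2 (-0.36) fell. Of the 5 genes of p38-controlled messenger RNA decay only Tnf passed the test (2.40). Tnf encodes the cytokine whose message these factors target and is not itself a decay factor.

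At 24 h Dusp1 and Dusp5 were lower with LPS than with either vehicle, and Dusp16 was higher. Whether the effect of LPS itself differed between 4 h and 24 h was not tested. Dusp1 held 271, 322 and 255 with LPS, against 434, 578 and 533 with DMSO and 548, 625 and 579 with EtOH. No LPS library reached a vehicle library, with a level 0.556 times that of DMSO (log2FC -0.85, SE 0.13, adjusted p = 0.000952) and 0.486 times that of EtOH (log2FC -1.04, SE 0.11, adjusted p = 8.15e-05). Dusp5 held 646, 715 and 658 with LPS, below DMSO (825 to 927) and EtOH (818 to 1043), with log2FC -0.35 (adjusted p = 0.0131) and -0.44 (adjusted p = 0.00959). Dusp4 was also lower, with libraries of 6524 to 6819 against 7583 to 8268 and 7624 to 9389.5 (log2FC -0.22, adjusted p = 0.0398, and -0.33, adjusted p = 0.021). Dusp16 held 1008, 1179 and 999.95 with LPS and at most 878 with a vehicle, with log2FC 0.41 over DMSO (adjusted p = 0.0154) and 0.38 over EtOH (adjusted p = 0.013). Dusp6 was called against DMSO only (log2FC 0.23, adjusted p = 0.0408), and against EtOH its log2FC was 0.14 (adjusted p = 0.233).

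The counts were 5 of 8 members against DMSO (2 higher and 3 lower, where 22.7% of genes were called) and 4 of 8 against EtOH (1 higher and 3 lower, where 20.5% were called). The median log2FC of the members was 0.08 and -0.18, beside 0.00564 and 0.00918 over all genes. Libraries did not overlap for 39.9% of all genes tested against DMSO and 37.6% against EtOH. The Dusp1 calls held without any 1 library. Against DMSO, the Dusp4, Dusp5, Dusp6 and Dusp16 calls were each lost without at least 1 library. Without LPS replicate 3 the adjusted p was 0.151 for Dusp4, 0.0617 for Dusp5 and 0.105 for Dusp6, without LPS replicate 1 it was 0.0503 for Dusp4 and 0.0722 for Dusp6, and without LPS replicate 2 it was 0.0574 for Dusp6. Without DMSO replicate 4 it was 0.132 for Dusp6 and 0.0528 for Dusp16, without DMSO replicate 5 it was 0.162 for Dusp4 and 0.126 for Dusp6, and without DMSO replicate 6 it was 0.101 for Dusp4 and 0.0691 for Dusp5. Against EtOH, Dusp4 was lost without EtOH replicates 5 or 6 or LPS replicate 3 (0.0733, 0.084 and 0.101) and Dusp5 without LPS replicate 3 (0.0521), whereas without LPS replicate 2 Dusp10 (-0.62, adjusted p = 0.014) and Dusp2 (0.35, 0.0488) passed. Dusp2 also passed with edgeR (0.0477) and DESeq2 (0.0467), against 0.0573 with limma.

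Around the members, Map3k8 (log2FC 1.0 over DMSO) and Mapkapk2 (0.76) were still higher with LPS at 24 h. Spry4, the Sprouty gene that these cells do express, was lower (-0.55, adjusted p = 0.000399). Of 9 further Sprouty, Spred and Ras feedback genes 1 rose and 4 fell, with Dok2, an adaptor that restrains Ras, the riser (0.74). Of 24 MAP kinases and upstream kinases 3 rose and 2 fell, and of 11 other phosphatases Dusp8 (-0.85) and Dusp9 (-0.43) fell. Of 12 transcription factors of the ERK response 2 rose, Fos (0.73) and Etv4 (0.30). Of the 5 decay genes 3 rose and 1 fell, among them Zfp36 (0.79), which encodes the decay factor tristetraprolin, and Zfp36l2 (-0.46). These list counts are against DMSO and stand beside 22.7% of all genes called there.

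DMF for 4 h on top of LPS lowered the ERK-pathway genes Dusp6 and Spred1 and raised Dusp5. Dusp6 held 2090.5, 2897 and 1779 with DMF against 4438, 6033 and 4917 with LPS alone. The groups stood well apart, with Dusp6 at 0.433 times the LPS level (log2FC -1.21, SE 0.18, adjusted p = 0.00311). Spred1 held 4078, 4161 and 3621 against 6369.6, 6347 and 6328, again without overlap, at 0.62 times the LPS level (log2FC -0.69, SE 0.08, adjusted p = 0.00123). Dusp5, the nuclear ERK phosphatase, moved in the opposite direction, with 796, 1195.5 and 1019.8 against 439, 646 and 519, a 1.87-fold rise (log2FC 0.90, SE 0.18, adjusted p = 0.0124).

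These were 3 of 8 members (1 higher, 2 lower), where 11.1% of 11371 genes were called, and the median over the members was -0.06 beside 0.00556 over all genes. Of all genes tested, 30.1% had no overlap between these groups. Dusp2, at 432, 504 and 569 against 570, 863 and 647, had log2FC -0.46 (adjusted p = 0.121, limma), and with the repeat number as a block it passed (adjusted p = 0.0415). The Dusp5 call was lost without LPS replicate 3 (adjusted p = 0.0514) or DMF replicate 3 (0.0578), at log2FC 0.89 in both. Dusp1, Dusp4, Dusp10 and Dusp16 had log2FC between -0.14 and 0.09, with 95% intervals of -0.83 to 0.87 for Dusp1 and -0.24 to 0.38 for Dusp16.

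Of the other pathway genes under DMF at 4 h, the immediate early gene Fos fell from 508 ± 45.9 to 104 ± 8.81 (log2FC -2.28, adjusted p = 2.45e-05), while its relative Fosl1 rose (1.25, adjusted p = 0.00103). Of 11 transcription factors of the ERK response 1 rose and 2 fell. Map3k8 fell by 1.19 on the log2 scale (adjusted p = 0.00504) and Mapkapk2 fell by 0.69 (adjusted p = 0.0159). Of 24 MAP kinases and upstream kinases 2 rose and 1 fell, and of 10 downstream kinases 1 fell. Of the 5 decay genes 3 fell, including Zfp36l1 (-1.03) and Zfp36l2 (-0.42) and the target message Tnf (-1.10), with a list median of -0.961. Among 11 other phosphatases Dusp8, a phosphatase of JNK and p38, rose (1.51, adjusted p = 0.0336) and Dusp7 fell (-0.61, adjusted p = 0.0086). These list counts stand beside 11.1% of all genes called.

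At 24 h of DMF, Dusp5 was again higher and Spred1 again lower than with LPS alone, and Dusp6 was not below it. Dusp5 held 1207, 1419.9 and 1560.0 against 646, 715 and 658, a 2.06-fold rise without overlap (log2FC 1.04, SE 0.10, adjusted p = 0.00012). Dusp2 rose as well, with 919, 1099.7 and 1067 against 795, 646 and 620.2, 1.5-fold (log2FC 0.58, SE 0.11, adjusted p = 0.00479). Spred1 held 5519, 5188.5 and 5099 against 7624, 6900.3 and 6678, at 0.746 times the LPS level (log2FC -0.42, SE 0.08, adjusted p = 0.00352). For these 3 genes the groups did not overlap, which held for 42.4% of all genes tested. Dusp6 held 6459.6, 6956 and 6677 against 6160.5, 6152 and 6059.6 (log2FC 0.13, 95% interval -0.01 to 0.27, adjusted p = 0.167).

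With DMF at 24 h 3 of 8 members were called (2 higher, 1 lower), where 25.1% of genes were called, and the members' median was 0.21 beside -0.0071 over all genes. The count was 5 with the repeat number as a block. The additional genes were Dusp1 (297, 552 and 416 against 271, 322 and 255, log2FC 0.53), with adjusted p = 0.0642 in limma without the block and 0.0076 with it, and Dusp16 (1125, 1368 and 1390.4 against 1008, 1179 and 999.95, log2FC 0.28), with 0.0627 and 0.0121. DESeq2 also called these 5. Without DMF replicate 1 or LPS replicate 2, Dusp1 passed at adjusted p = 0.0057 and 0.0391, and Dusp16 at 0.0168 and 0.0219. Elsewhere in the pathway, Dusp8 rose (1.38) and Dusp9 fell (-0.60) among 11 other phosphatases, of which 1 rose and 2 fell. Errfi1, a feedback inhibitor of the EGF receptor, was the 1 riser (0.66) among 9 further feedback genes. Of 24 MAP kinases and upstream kinases 2 rose and 5 fell, and of 10 downstream kinases 2 rose and 1 fell, with Mknk1 at 0.94. Of 12 transcription factors of the ERK response 2 rose, Ets2 (0.83) and Fosl1 (0.73), and 3 fell.

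MMF, the monomethyl ester that forms from DMF by loss of one methyl group, gave 0 calls among the 8 members at either time with limma. At 4 h 0.122% of all genes were called, and 3 members had an unadjusted p below 0.05: Dusp5 (644, 882 and 673 against 439, 646 and 519, log2FC 0.46, 95% interval 0.10 to 0.82), Spred1 (5368, 5365 and 5252 against 6369.6, 6347 and 6328, log2FC -0.25, interval -0.40 to -0.10) and Dusp6 (3921, 4322 and 4047 against 4438, 6033 and 4917, log2FC -0.31, interval -0.55 to -0.06). For Spred1 and Dusp6 every MMF library lay below every LPS library, and for Dusp5 the groups overlapped by a single pair of libraries. Groups without overlap were found for 13.5% of all genes tested. Their adjusted p were 0.563, 0.424 and 0.572. edgeR and DESeq2 called 0 members as well. In limma with the repeat number as a block Dusp5 was called (adjusted p = 0.0172). The numbers did not pair these libraries by the check described below (lowest r 0.0836).

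At 24 h of MMF 0% of genes were called, and only Dusp5 had an unadjusted p below 0.05 among the members. Dusp5 held 799, 957 and 742 against 646, 715 and 658 with LPS alone (log2FC 0.30, 95% interval 0.07 to 0.53, adjusted p = 1.0), with every MMF library above every LPS library. With the repeat number as a block it was called (adjusted p = 0.0168), whereas edgeR and DESeq2 called 0 members. At 24 h the MMF and LPS groups did not overlap for 9.0% of all genes tested. The median log2FC of the members under MMF was -0.02 at both 4 h and 24 h. Of the other pathway genes, Fos fell at 4 h (log2FC -0.97, adjusted p = 0.0485) and no gene of the 6 lists was called at 24 h.

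**Figure D3:**
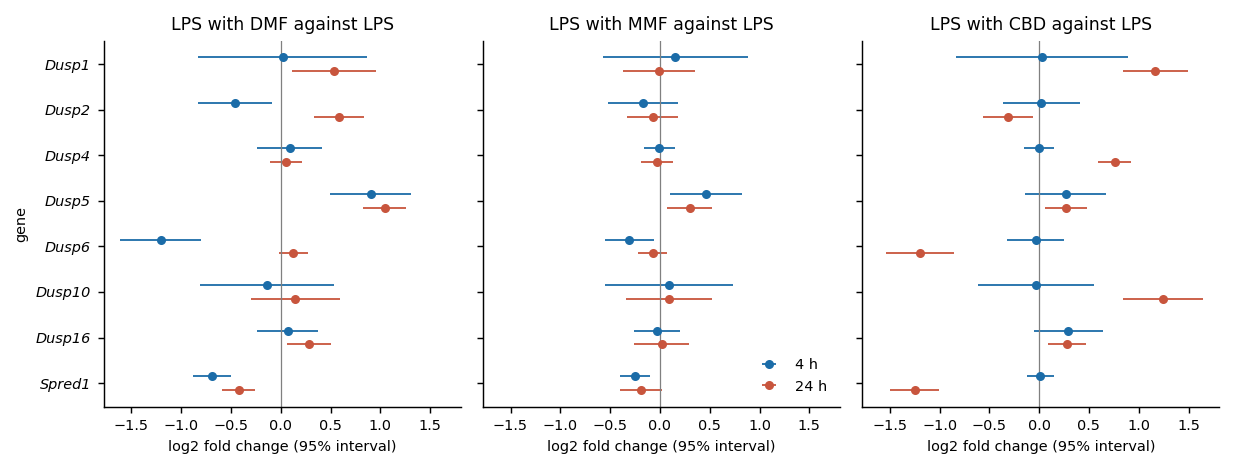
Log2 fold changes of LPS with each drug over LPS alone for the 8 tested members (points, with 95% intervals from limma on 6 libraries), at 4 h (blue) and 24 h (red). DMF moved Dusp6 at 4 h (-1.21), CBD moved it at 24 h (-1.20), and under MMF no member was called.

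DMF and MMF differ by one methyl ester and were given at the same 30 µM, so this 1 pair was compared directly at each time, with p-values adjusted over all genes. At 4 h Dusp6 (2090.5, 2897 and 1779 with DMF against 3921, 4322 and 4047 with MMF) was at 0.537 times the MMF level (log2FC -0.90, SE 0.16, adjusted p = 0.00798). Spred1 (3621 to 4161 against 5252 to 5368) was also lower with DMF (log2FC -0.44, SE 0.09, adjusted p = 0.0127). These were the 2 of 8 members called, where 8.34% of genes were called. Neither overlapped, which held for 29.6% of all genes tested. Dusp5 was 1.36-fold higher with DMF, which missed the threshold (log2FC 0.44, 95% interval 0.07 to 0.81, adjusted p = 0.137), and it passed without DMF replicate 1 (0.60, adjusted p = 0.0472). For Dusp4 the interval of the difference was -0.21 to 0.40 and for Dusp16 -0.18 to 0.38, while for Dusp1 it was as wide as -0.64 to 0.37. The Spred1 call was lost without DMF replicate 3 (adjusted p = 0.0718) or without MMF replicate 1, 2 or 3 (0.0506, 0.0518 and 0.0501).

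At 24 h Dusp5 and Dusp2 differed most between the fumarates. Dusp5 (1207 to 1560.0 with DMF against 742 to 957 with MMF) was 1.67-fold higher with DMF (log2FC 0.74, SE 0.11, adjusted p = 0.00243). Dusp2 (919 to 1099.7 against 607 to 724) was 1.58-fold higher (log2FC 0.66, SE 0.09, adjusted p = 0.0019). Dusp6 (6459.6 to 6956 against 5505 to 6099) was now slightly higher with DMF (log2FC 0.20, SE 0.06, adjusted p = 0.0445). Thus 3 of 8 members were called, all higher with DMF, where 21.5% of genes were called. With the repeat number as a block 6 were called, the others being Dusp1 (log2FC 0.54, adjusted p = 0.00128, against 0.104 without the block), Dusp16 (0.26, 0.011 against 0.164) and Spred1 (-0.23, 0.0029 against 0.0642). The Dusp6 call was lost without MMF replicates 1 or 3 or DMF replicates 2 or 3 (adjusted p = 0.103 to 0.155) and with no filter (0.0706). Without MMF replicate 2, Dusp1 (adjusted p = 0.0271) and Dusp16 (0.0142) passed, as did Dusp1 without DMF replicate 1 (0.0173) and Spred1 without MMF replicate 3 (0.0258). Among other pathway genes Fos (log2FC -1.31) and Map3k8 (-1.07) were lower with DMF than with MMF at 4 h, and Ets2 (0.84) and Dusp8 (1.22) were higher at 24 h.

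CBD was given at 6 µM and therefore not compared with the fumarates. With it no member was called at 4 h, and all 8 tested members were called at 24 h. At 4 h 0 of 8 were called with limma, where 0.00875% of genes were called (1 of 11424), 0 members had an unadjusted p below 0.05, and edgeR and DESeq2 called 0. The 95% intervals of log2FC were narrow for Spred1 (-0.12 to 0.14) and Dusp4 (-0.15 to 0.15), and wide for Dusp1 (-0.83 to 0.90) and Dusp10 (-0.61 to 0.55). Dusp16 had log2FC 0.29 (interval -0.06 to 0.64) and Dusp5 0.27 (interval -0.14 to 0.67). Their log2FC at 24 h was of like size, at 0.28 and 0.27.

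At 24 h Dusp1 and Dusp10 more than doubled, Dusp4 rose, and Dusp6 and Spred1 fell to less than 0.5 times the LPS level. Dusp10 held 290, 324 and 363 with CBD against 108, 179 and 132 with LPS alone. This was a 2.37-fold rise with no overlap (log2FC 1.25, SE 0.18, adjusted p = 0.000437). Dusp1 held 512, 704 and 695 against 271, 322 and 255, a 2.24-fold rise (log2FC 1.17, SE 0.14, adjusted p = 0.000196). Dusp4 held 11008, 11010.0 and 11822 against 6819, 6732 and 6524, the highest level of this gene in any group (log2FC 0.76, SE 0.08, adjusted p = 5.84e-05). In all 3 genes the lowest CBD library exceeded the highest LPS library. Over all genes tested, the libraries of these groups did not overlap for 58.7%.

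The falls were as large. Spred1 held 3029, 3377.5 and 2527 with CBD against 7624, 6900.3 and 6678, which was 0.42 times the LPS level (log2FC -1.25, SE 0.11, adjusted p = 3.06e-05). Dusp6 held 2897, 3265 and 1994 against 6160.5, 6152 and 6059.6, which was 0.436 times the LPS level (log2FC -1.20, SE 0.15, adjusted p = 0.000229). Neither gene's groups came near each other. Smaller differences were called for Dusp2 (566, 569 and 515 against 795, 646 and 620.2, log2FC -0.31, adjusted p = 0.0447), Dusp5 (839, 870.2 and 720.2 against 646, 715 and 658, log2FC 0.27, adjusted p = 0.0414) and Dusp16 (1254, 1259 and 1329.7 against 1008, 1179 and 999.95, log2FC 0.28, adjusted p = 0.0234).

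These 8 of 8 calls (5 higher and 3 lower) stand beside 48.7% of all genes called in the same comparison, and the members' median was 0.27 beside -0.00187 over all genes. The calls for Dusp1, Dusp4, Dusp6, Dusp10 and Spred1 held without any 1 library. The Dusp2 call was lost without LPS replicate 1 (log2FC -0.19, adjusted p = 0.145) or without CBD replicate 1, 2 or 3 (adjusted p = 0.0814, 0.0558 and 0.126). The Dusp5 call was lost without LPS replicates 1 or 3 or CBD replicates 1 or 2 (adjusted p = 0.104 to 0.128), and the Dusp16 call without LPS replicates 1 or 3 or CBD replicates 1 or 3 (adjusted p = 0.0507 to 0.0984). The count was lowest, at 5, without LPS replicate 1 or CBD replicate 1. With no filter on low values 6 were called, without Dusp2 (adjusted p = 0.0516) and Dusp5 (0.0511).

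CBD at 24 h also lowered other genes of Ras and ERK feedback. Of 9 further Sprouty, Spred and Ras feedback genes 6 fell and 0 rose, with a median of -0.672, among them Dok2 (log2FC -1.91), Errfi1 (-1.07) and the adaptor Sh2b3 (-0.78). Of 12 transcription factors of the ERK response 6 fell and 1 rose (median -0.34), among them Etv4 (-1.60), Elk3 (-1.34) and Egr2 (-1.02). Of 24 MAP kinases and upstream kinases 8 fell and 2 rose. Among 10 downstream kinases 3 rose and 3 fell, with Rps6ka2 at 1.3 and Rps6ka5 at -0.94. Among 11 other phosphatases 2 rose and 3 fell, with Dusp8 at 1.67 and Dusp7 at -0.71. Of the 5 decay genes 4 fell, including Zfp36l1 (-0.85), Zfp36l2 (-0.41) and the target message Tnf (-0.41). Each count stands beside the 48.7% of genes called.

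Measured against the vehicle rather than against LPS alone, the combined treatments at 4 h kept Dusp5, Dusp16 and Dusp4 high. LPS with DMF gave the largest Dusp5 difference of the 4 h comparisons, 3.29-fold over DMSO (log2FC 1.72, SE 0.18, adjusted p = 0.000239), with Dusp16 at 2.10-fold (log2FC 1.07, adjusted p = 0.000427). In the same comparison Dusp6 (log2FC -0.94, adjusted p = 0.00262) and Spred1 (-0.41, adjusted p = 0.00723) lay below the DMSO level. With Dusp4 (0.54, adjusted p = 0.0216) that made 5 of 8 members, where 23.5% of genes were called. The Dusp4 call was lost without DMSO replicate 4 or 6 or DMF replicate 3 (adjusted p = 0.0785, 0.0694 and 0.0762). LPS with MMF gave 3 of 8 (8.22% of genes), namely Dusp5 (log2FC 1.28), Dusp16 (0.97) and Dusp4 (0.45), all higher. LPS with CBD over EtOH gave 4 of 8 (13.6% of genes), namely Dusp16 (1.46), Dusp5 (1.25), Dusp2 (0.46) and Dusp4 (0.43), all higher. That Dusp2 call (adjusted p = 0.0425) was lost without EtOH replicate 4 or 6 or CBD replicate 2 or 3 (adjusted p = 0.0852 to 0.143), and without EtOH replicate 5 Spred1 passed (0.032).

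At 24 h each combined treatment differed from its vehicle in several members, and Dusp16 was called higher in each. LPS with DMF over DMSO called 5 of 8 (40.2% of genes), with Dusp2 (log2FC 0.82), Dusp5 (0.70), Dusp16 (0.70) and Dusp6 (0.36) higher and Spred1 lower (-0.31). Dusp1, at log2FC -0.30 (adjusted p = 0.241), passed only without DMF replicate 2 (-0.52, 0.0249). LPS with MMF called 3 of 8 (22.4% of genes), with Dusp1 (-0.85, adjusted p = 0.00511) and Dusp4 (-0.25) lower and Dusp16 higher (0.43). Without DMSO replicate 6 the adjusted p was 0.092 for Dusp4 and 0.0628 for Dusp16, without DMSO replicate 5 it was 0.135 and 0.0741, and without MMF replicate 3 it was 0.141 and 0.0613. Dusp4 was also lost without MMF replicate 1 (0.11), and Dusp16 without DMSO replicate 4 (0.101) or MMF replicate 2 (0.0557). LPS with CBD over EtOH called 5 of 8 (50.5% of genes), with Dusp10 (0.82), Dusp16 (0.65) and Dusp4 (0.42) higher and Spred1 (-1.29) and Dusp6 (-1.07) lower. Dusp1 under CBD (512 to 704) overlapped EtOH (548 to 625), with log2FC 0.12 (95% interval -0.17 to 0.41).

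Between the vehicles no member was called. With limma, DMSO against EtOH called 0 of 8 members at 4 h, where 0% of genes were called, and 0 of 8 at 24 h, where 0.00854% were called, and edgeR and DESeq2 also called 0 members at both times. Among the members 0 had an unadjusted p below 0.05 at 4 h and 1 at 24 h. That 1 was Dusp10, at 117, 159.8 and 125 with DMSO against 175, 191 and 188 with EtOH (log2FC -0.48, 95% interval -0.79 to -0.16, adjusted p = 0.997), without overlap of the libraries. The Dusp2 libraries did not overlap at 24 h either (561.21 to 607 with DMSO against 541 to 560.74 with EtOH). Such separation held for 8.9% of all genes tested at 24 h.

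The members differed between 4 h and 24 h even in cells given only a vehicle. Because serum was lowered just before treatment, time in culture and time in low serum cannot be told apart. With DMSO all 8 tested members were higher at 24 h than at 4 h, where 51.6% of genes were called, and with EtOH 7 of 8 were higher, where 58.6% were called. With EtOH, Dusp1 rose 3.84-fold (157 ± 62.4 to 584 ± 38.7, log2FC 1.94, adjusted p = 4.62e-05), Dusp10 3.4-fold (log2FC 1.76) and Dusp5 3.38-fold (log2FC 1.76). With DMSO the same genes rose 2.72-fold, 2.2-fold and 2.84-fold. Dusp4 rose about 2.05-fold with DMSO and 2.15-fold with EtOH, and Dusp16 1.77-fold and 2.03-fold. Dusp6 (log2FC 0.30 and 0.29) and Spred1 (0.32 and 0.34) rose by less. Dusp2 was called with DMSO (0.32, adjusted p = 0.0369) and not with EtOH (0.12, adjusted p = 0.237). That Dusp2 call was lost without any of DMSO replicates 4, 5 or 6 at 24 h or 4 or 6 at 4 h (adjusted p = 0.0545 to 0.123).

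With LPS alone 2 of 8 members differed between the times, where 48.9% of genes were called. They were Dusp10 (78 ± 26.0 at 4 h and 139.7 ± 35.8 at 24 h, log2FC 0.86, adjusted p = 0.0232) and Dusp4 (log2FC 0.36, adjusted p = 0.00335). With the repeat number as a block 6 of 8 were called, adding Dusp1 (log2FC 0.68, adjusted p = 0.0219), Dusp5 (0.34, 0.0198), Dusp6 (0.26, 0.0482) and Dusp16 (0.23, 0.038), all higher at 24 h. The same genes passed without LPS replicate 2 at 4 h (Dusp1 1.12, adjusted p = 0.000338, Dusp5 0.00344, Dusp6 0.00281 and Dusp16 0.0277). The Dusp10 call was lost without LPS replicate 1 at 4 h (adjusted p = 0.0628) or replicates 2 or 3 at 24 h (0.103 and 0.0603).

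The difference between the times was also tested within each drug group. With DMF 7 of 8 members were higher at 24 h (58.8% of genes called), led by Dusp6, which went from 2255.5 ± 577 to 6697 ± 249 (3.02-fold, log2FC 1.59, adjusted p = 1.55e-05), and Dusp1 (log2FC 1.19), Dusp10 (1.14) and Dusp2 (1.03) followed. Dusp4 (0.32, adjusted p = 0.0689) passed without DMF replicate 2 at 4 h (0.00789). Dusp5 (0.48) was lost without DMF replicate 2 or 3 at 24 h (adjusted p = 0.0509 and 0.0776), and Dusp16 (0.44) without replicate 3 at 4 h or at 24 h (0.0553 and 0.059). With MMF 4 of 8 were higher at 24 h (49.5% of genes), namely Dusp10 (0.86), Dusp1 (0.52), Dusp6 (0.50) and Dusp4 (0.35). With the repeat number as a block Dusp16 (0.29, adjusted p = 0.0103) and Spred1 (0.21, 0.0205) were called too. Dusp1 under MMF was lost without replicate 1 or 3 at 4 h or replicate 2 at 24 h (adjusted p = 0.0619, 0.0805 and 0.0876). Without MMF replicate 2 at 4 h Dusp5 (0.0376) and Dusp16 (0.046) passed, as did Dusp16 without replicate 1 (0.0368) and Spred1 without replicate 3 (0.0171) at 24 h.

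With CBD the course split, since 3 members rose and 3 fell between 4 h and 24 h (6 of 8, where 63.2% of genes were called). Dusp10 rose 4.39-fold (72.8 ± 7.10 to 326 ± 36.9, log2FC 2.14, adjusted p = 1.99e-06), Dusp1 3.5-fold (log2FC 1.81) and Dusp4 2.17-fold (log2FC 1.12). Spred1 fell to 0.461 times its 4 h level (log2FC -1.12, adjusted p = 9.32e-06), Dusp6 to 0.534 times (-0.90, adjusted p = 0.000833) and Dusp2 to 0.792 times (-0.34, adjusted p = 0.0348). CBD was the only treatment in which Dusp6 and Spred1 were called lower at 24 h. The Dusp2 call was lost without CBD replicate 1 or 3 at 24 h or 2 or 3 at 4 h (adjusted p = 0.065 to 0.123). Without CBD replicate 2 at 4 h Dusp5 (0.00531) and Dusp16 (0.0317) passed, as did Dusp5 without replicate 3 at 24 h (0.0371).

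**Figure D4:**
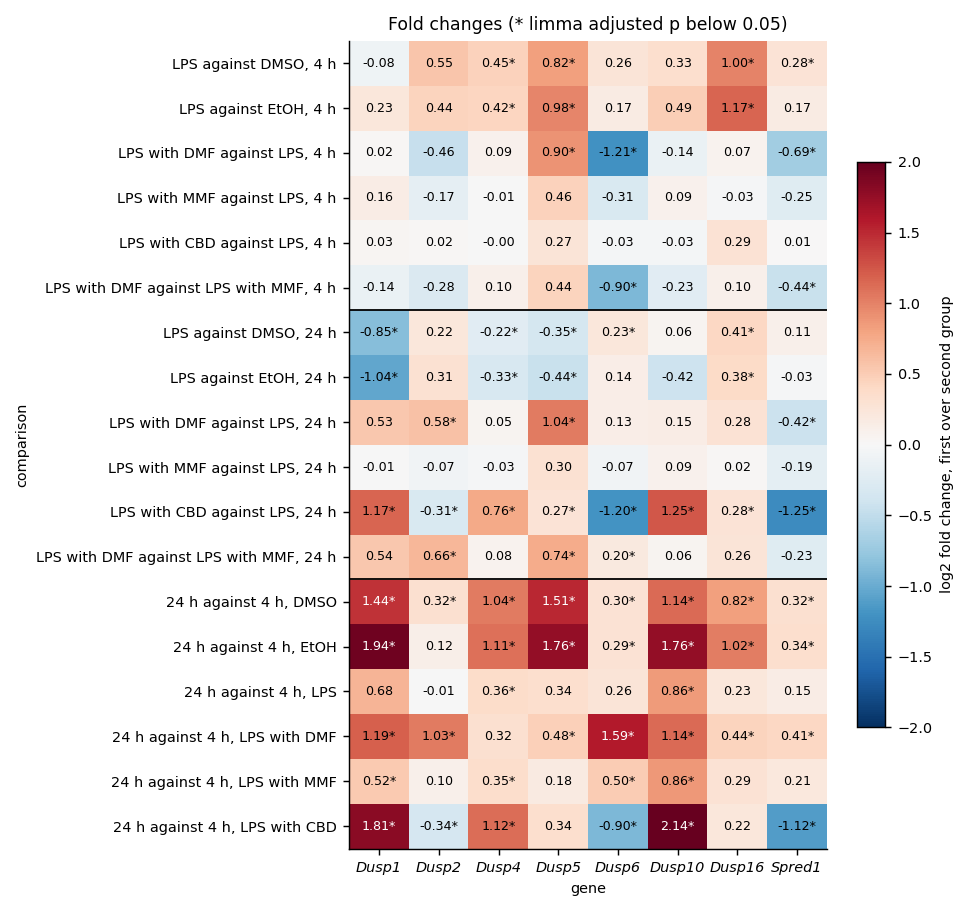
Log2 fold changes of the 8 tested members (columns) in 18 comparisons of 2 groups (rows), first named group over second; red is higher, blue lower, and an asterisk marks a limma adjusted p below 0.05. The CBD row at 24 h has an asterisk in all 8 columns, the rows for CBD at 4 h and for MMF at either time have none, and Dusp6 is blue under DMF at 4 h and under CBD at 24 h.

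Whether a drug effect over LPS alone differed between the times was tested directly on 12 libraries. For DMF 2 of 8 members were called, where 16.4% of genes were called: Dusp6, whose change over LPS was 1.33 higher on the log2 scale at 24 h than at 4 h (SE 0.20, adjusted p = 0.000659), and Dusp2, by 1.03 (SE 0.21, adjusted p = 0.00445). The Dusp5 effect of DMF, called at both times, differed by 0.13 (95% interval -0.33 to 0.60), and the Spred1 effect by 0.26 (interval 0.02 to 0.50, adjusted p = 0.134). For CBD 4 of 8 were called, where 31.9% of genes were called. Spred1 differed by -1.26 (SE 0.13, adjusted p = 1.81e-05), Dusp4 by 0.77 (SE 0.09, adjusted p = 6.43e-05), Dusp6 by -1.16 (SE 0.22, adjusted p = 0.00122) and Dusp10 by 1.29 (SE 0.33, adjusted p = 0.00914). Dusp1 differed by 1.14 (95% interval 0.19 to 2.09, adjusted p = 0.0626). It passed without LPS replicate 1 at 4 h (adjusted p = 0.015) or CBD replicate 2 at 4 h (0.0292) and with edgeR (0.0428). It also passed with the repeat number as a block over both times (0.00491). The numbers did not, however, pair the CBD libraries of 4 h and 24 h (lowest correlation of same-numbered libraries 0.0308). For MMF 0 of 8 were called with limma, where 0% of genes were called, 0 members had an unadjusted p below 0.05, and edgeR and DESeq2 called 0.

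Across the 12 group means the members fell into patterns that are given here as description only, since the means share vehicles, LPS libraries and times. Dusp4 and Dusp10 ran most nearly together (Pearson's r = 0.958 on the log2 scale, n = 12 groups), and Dusp1 followed Dusp10 (0.922) and Dusp4 (0.918). Dusp5 ran with Dusp16 (0.841), and Dusp6 with Spred1 (0.828). Dusp5 and Dusp16 also followed Dusp1, Dusp4 and Dusp10 to a lesser degree (0.457 to 0.718), whereas the pairs of these 5 genes with Dusp6 or Spred1 ran from -0.24 to 0.146. Among 10096 genes with a mean of at least 50, those most like Dusp1 were Dnajc1 (0.991), Lonp1 (0.983) and Klk1b22 (0.980). Those most like Dusp4 were Anxa5 (0.973), S1pr2 (0.967) and Prkx (0.963), and those most like Dusp10 were Hcfc2, Gab2 and Hk3 (0.982 to 0.983). Dusp5 was nearest to Stk40 (0.954), Nabp1 (0.931) and Pvr (0.928), and Dusp16 to Rapgef2, Nfkbiz (both 0.959) and Plek (0.951). Dusp6 was nearest to Irf5 (0.963), Ptpre (0.947) and Fam107b (0.943), Spred1 to Mef2c (0.926), Add2 (0.919) and Ap1s2 (0.913), and Dusp2 to Tm4sf1 (0.943), Nck1 and Btg2 (both 0.924).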

How the data were processed

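Per the labels and the study's methods, RNA was sequenced from BV-2 cells as 3 repeats of each of 12 groups. The authors checked paired reads with FastQC 0.12.1, trimmed them with Cutadapt 4.4 and Trimmomatic 0.39, aligned them to GRCm39 with HISAT2 2.2.1 and counted them per Ensembl gene with HTSeq 2.0.3. The authors deposited 30 tables of 6 libraries with the signal of each gene as read counts divided by DESeq2 1.40.2 size factors. The tables also hold columns of the authors' own comparisons (deposited log2 fold change with its error, Wald score, and raw and adjusted p-value), which were not used. In 155 of the 180 columns of libraries the values could be turned back into reads, 100% of 2695078 being whole to within 0.01 read, and the other 25 columns were taken from tables that share the library.

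Tests used limma 3.58.1 (R 4.3.3, trend) on log2 of the normalized count plus 1, with the 6 libraries of a comparison and genes at 10 or more in at least 3 of them. Benjamini-Hochberg adjustment ran over all genes tested, and a call is an adjusted p below 0.05. Fold changes are on this log2 scale, first group over second, which understates changes of low genes. Effects at 24 h against 4 h were tested as an interaction on 12 libraries. The printed levels use 1 median-of-ratios scaling of all 36 libraries, which shifted log2 fold changes by at most 0.0235. Alternatives were edgeR 4.0.16 (quasi-likelihood) and DESeq2 1.42.0 on the recovered reads, a pseudocount of 5, no filter, a block for the repeat number and leaving out each library. The fits were tested on simulated data.

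Numbers in the labels were 1 to 3 in LPS groups and 4 to 6 in vehicle groups. They were taken to pair libraries where same-numbered libraries deviated together (each of 3 correlations over 10096 genes above 0.1), which held for each drug against LPS at both times except MMF at 4 h (lowest r 0.0836), for DMF against MMF at 24 h, for DMSO against EtOH, and for 24 h against 4 h with LPS and with MMF.

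All members are named, and of each pathway list at most the 3 called genes with the largest change. A withheld item is not reported here. For each member the 3 genes with the most similar 12 group means are named. The members and lists were chosen with earlier results of these data known. Promoter windows are from RefSeq, and exon lengths and overlaps from GENCODE.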

Additional observations from a re-analysis of the deposited data

Results flagged for a closer look

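The effects of 2 drugs on 5 members differed between 4 h and 24 h in the test of the difference itself (limma interaction, adjusted over all genes). Under DMF the difference was 1.33 on the log2 scale for Dusp6 and 1.03 for Dusp2. Dusp6 went from 0.433 times the LPS level at 4 h to log2FC 0.13 (95% interval -0.01 to 0.27) at 24 h, and Dusp2 from log2FC -0.46 (not called) to 0.58. Under CBD the difference was -1.26 for Spred1, -1.16 for Dusp6, 1.29 for Dusp10 and 0.765 for Dusp4. All 4 had log2FC between -0.03 and 0.01 at 4 h. Dusp6 is the 1 member for which both drugs differed by time, in opposite directions. Groups of 3 libraries are too small for a test of single outlying libraries.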

How the results depend on the processing

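Over 29 comparisons the 8 tested members gave 232 tests and 100 calls, of which 75 held without any 1 library, 25 were lost without at least 1, and 0 changed direction under any alternative. A pseudocount of 5 changed 0 calls. edgeR added 3 calls and lost 0, DESeq2 added 8 and lost 0, and testing with no filter lost 5 (Dusp4, adjusted p = 0.0657, and Dusp6, 0.0595, for LPS against DMSO, Dusp2 and Dusp5 for CBD against LPS, and Dusp6 for DMF against MMF, all at 24 h). Over all genes the count tests on the recovered reads called, for example, 5705 (edgeR) and 5483 (DESeq2) genes for CBD against LPS at 24 h beside 5687 with limma, and the counts of limma and DESeq2 were more than 1.5 times apart for MMF against LPS at 4 h (14 and 54) and 24 h (0 and 17), DMSO against EtOH at 4 h (0 and 79) and 24 h (1 and 3) and CBD against LPS at 4 h (1 and 3). Counts of members called moved by over 1.5 times as follows. With no filter, LPS against DMSO at 24 h gave 3. With the replicate block, the count was 1 for MMF against LPS at 4 h, 5 for DMF against LPS at 24 h, 1 for MMF against LPS at 24 h, 6 for DMF against MMF at 24 h and 6 for 24 h against 4 h with LPS, and DESeq2 gave 5 for DMF against LPS at 24 h. No paired analysis was possible for LPS or a drug against a vehicle because the groups share no numbers. The block added 18 calls in all and lost 0. Those where the numbers did not pair the libraries were Dusp5 for MMF against LPS (adjusted p = 0.0172) and DMF against MMF (0.0102) at 4 h and Dusp4 with DMF (0.0171) and Dusp5 with CBD (0.022) for 24 h against 4 h. For the interactions the pairing was not checked over all 12 libraries. Between 24 h and 4 h the numbers did not pair with CBD (lowest r 0.0308) or with DMF (0.0193). The block changed no other call than these and those given with the results. Leaving out 1 library gave 2 to 4 calls for LPS against DMSO at 4 h, 2 to 4 at 24 h, 2 to 6 for LPS against EtOH at 24 h, 3 to 5 for DMF against LPS at 24 h, 5 to 8 for CBD against LPS at 24 h, 1 to 3 and 2 to 5 for DMF against MMF at 4 h and 24 h, 1 to 2 for LPS with MMF against DMSO at 24 h, and 1 to 6 for 24 h against 4 h with LPS. The cause was not tested. With 3 libraries a group, the 95% intervals for Dusp1 and Dusp10 with each drug against LPS at 4 h reached beyond 0.5 log2 units on both sides of 0, and Spry1 and Spry2 lay below testable depth.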
